A study of Arabidopsis thaliana with 6 samples.

Results

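The kinesin motor family was examined in the Arabidopsis root apex, through every nuclear probe set whose deposited annotation carries the word kinesin, without kinesin light chains and with the locus AT1G18370 set aside. This gave 48 of the 22746 probe sets tested. They name 48 loci, of which AT3G10170 and AT3G10180 are annotated to a single gene, so that 47 genes were read. The samples were pieces of root from wild-type Col-0 seedlings, grown for 8 days on vertical plates in continuous light and fixed in RNAlater, with no other treatment or genotype. Zone II, a 1.5 mm section, held elongating cells and root hairs, and zone I, the terminal 0.5 mm, held the root cap and the dividing cells. There were 3 arrays per zone, hybridised with labelled cDNA amplified from total RNA. Since no label says whether the 3 come from separately grown plants, p-values here reflect the spread among arrays, which may be technical.

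Kinesins are motor proteins that walk along microtubules using ATP. In dividing plant cells some of them push and focus the spindle, and others build and guide the phragmoplast, the microtubule array that lays down the new cell wall. Further members act on the cortical microtubules of growing cells or move organelles, and for many no role is given in the annotation used here. In a root these activities are laid out along the axis, with divisions near the tip and cell elongation and hair growth behind it.

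The members were placed by role. The division kinesins numbered 15, with 7 of the phragmoplast and 8 of the spindle. The other 33 were 5 kinesins linked to cell growth or the cortical array, 5 linked to organelles, ATK4, and 22 with no role assigned. Where a locus below is placed in a subfamily but carries no gene name, the placement comes from general knowledge of the family and not from the deposited annotation. All values are scaled signal intensities on a linear scale, and signals of different genes are not compared, because each probe set has its own response. A difference is the mean log2 signal of zone II less that of zone I, given ± its standard error (SE, 3 arrays per zone), so a negative one is higher in zone I. A member was called at an adjusted p under 0.05 (limma, adjusted over all probe sets tested). Where the geometric mean of the dimmer zone was under 64, as in 15 members, a second difference, computed after adding 64 to all signals, is given next to the first, since signals that low vary widely between arrays.

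The arrays carried the marks of the 2 zones. Of the differentiation markers CASP1, EXPA7, EXPA18 and COBL9, 4 of 4 were called higher in zone II, and of the dividing-cell markers CYCB1;1, KN, PLT1 and PLT2, 4 of 4 were called higher in zone I. The root cap factors SMB and FEZ were called higher in zone I as well. Median signals per array lay between 132.1 and 149.4. Because whole pieces of root were measured, fewer cells of a type and less RNA per cell cannot be told apart.

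Of the 48 kinesin probe sets, 8 were called higher in zone II, 21 were called higher in zone I, and 19 were not called. The 21 include 2 probe sets of a single gene, AT3G10170 and AT3G10180, as do the 9 called toward zone I among the non-division kinesins. Of all probe sets, 18.1% were called toward zone II and 19.8% toward zone I. As placed by role here, the division kinesins and the others stood differently. The others include AT5G60930, annotated as a putative chromosome-associated kinesin, and moving members into the division list was not tried. Among the 15 division kinesins, 1 was called toward zone II and 12 toward zone I, with a median difference of -2.96 (-1.80 with 64 added). Among the other 33, 7 were called toward zone II and 9 toward zone I, with a median of -0.15 (-0.12 with 64 added) and a range of -4.58 to 5.22. The median over all probe sets was -0.04 (-0.01 with 64 added). The signals of the zones did not overlap for 13 of the 15 division kinesins and 19 of the 33 others, against 49.9% of all probe sets. These counts and medians describe the lists, and no test of the lists was made.

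**Figure D1:**
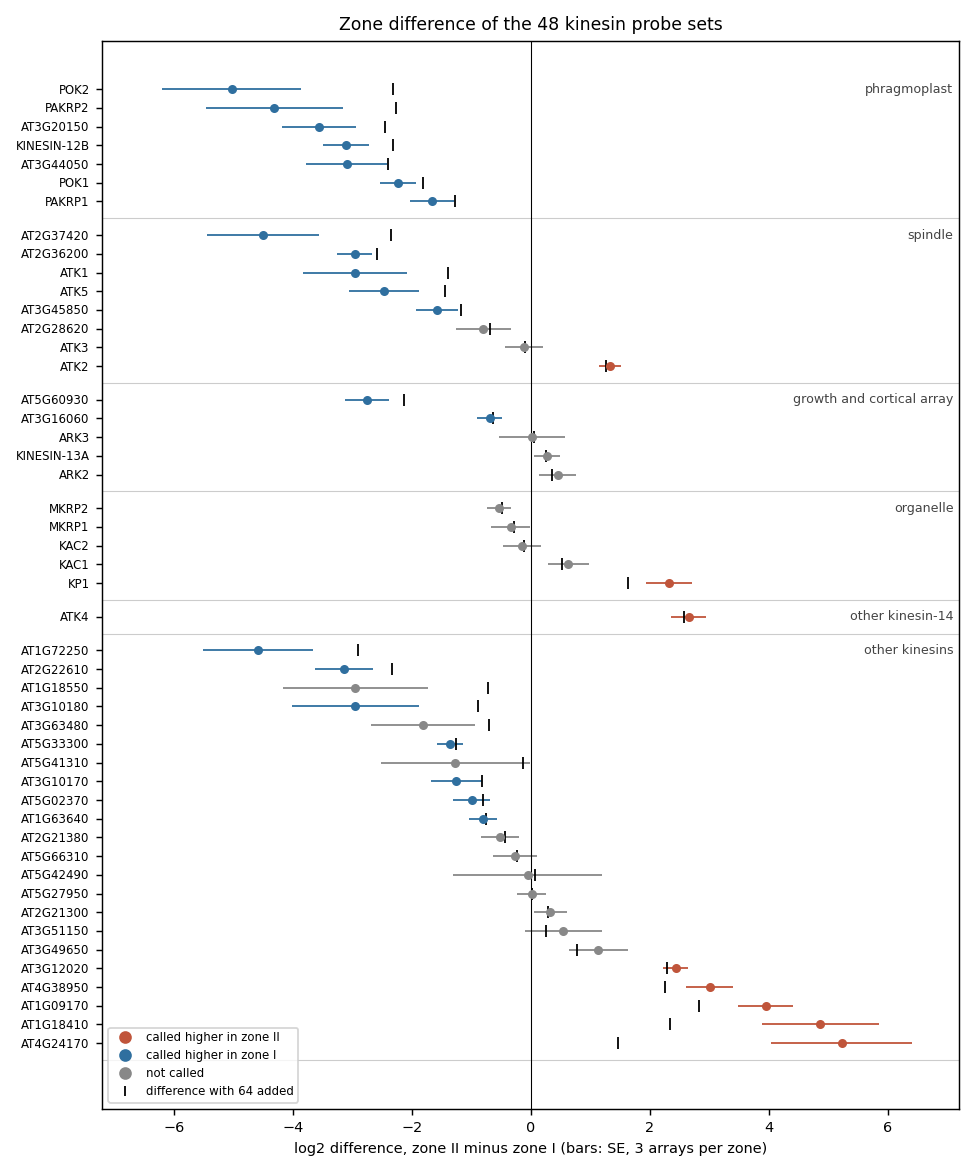
Log2 difference of zone II minus zone I (horizontal axis) for the 48 kinesin probe sets, grouped by role, with bars for the SE (3 arrays per zone) and a vertical tick for the difference with 64 added. All 7 kinesins placed with the phragmoplast lie left of 0, while the 22 members with no role assigned run from -4.58 to 5.22.

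All 7 kinesins placed with the phragmoplast were called higher in zone I (19.8% of all probe sets), and none had overlapping signals (49.9% of all probe sets had none). Of these, 6 belong to the kinesin-12 subfamily. The kinesin-12 loci AT3G20150 and AT3G44050 carry no gene name here, and their place with the phragmoplast was not checked. Counting them with the spindle kinesins was not tried. POK2, which with POK1 marks the future division site and guides the phragmoplast to it, had signals of 121, 4.22 and 3.75 on zone II arrays 1 to 3, against 221, 645 and 464 on zone I arrays 1 to 3. Its zone II signal on array 1 stood far above those on arrays 2 and 3, and its difference was -5.03 ± 1.17 (adjusted p = 0.00565; -2.32 with 64 added). POK1 had 101, 166 and 150.1 in zone II, against 562, 728 and 634 in zone I. The POK1 signals were even within each zone, and the difference was -2.23 ± 0.30 (adjusted p = 0.000181).

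PAKRP1 and KINESIN-12B are plus-end-directed kinesins found where the opposing microtubules of the phragmoplast meet. PAKRP1 had 131, 151 and 97.4 in zone II, against 266, 493 and 459 in zone I, a difference of -1.66 ± 0.37 (adjusted p = 0.0042). KINESIN-12B had 86.7, 47.5 and 86.0 in zone II, against 440.0, 762 and 675 in zone I, a difference of -3.11 ± 0.39 (adjusted p = 9.91e-05). For both genes zone I array 1 was the lowest of its zone and still above every zone II array.

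The kinesin-12 loci AT3G20150 and AT3G44050 were spread more widely in zone II. AT3G20150 had 137, 54.4 and 19.7 in zone II, against 447, 857 and 631 in zone I (-3.56 ± 0.62, adjusted p = 0.000922; -2.45 with 64 added). AT3G44050 had 382, 101 and 37.0 in zone II, against 587, 1306 and 1163 in zone I (-3.10 ± 0.68, adjusted p = 0.00409). In both, zone II array 1 was the highest of its zone and array 3 the lowest. PAKRP2, a phragmoplast kinesin known from vesicle traffic to the cell plate, had 80.9, 56.6 and 2.27 in zone II, against 212, 656 and 580.4 in zone I. Its difference was -4.31 ± 1.14 (adjusted p = 0.0117; -2.26 with 64 added), and the call was lost when zone I array 2 was left out (adjusted p = 0.0603) or the intensity trend was dropped (adjusted p = 0.0743).

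**Figure D2:**
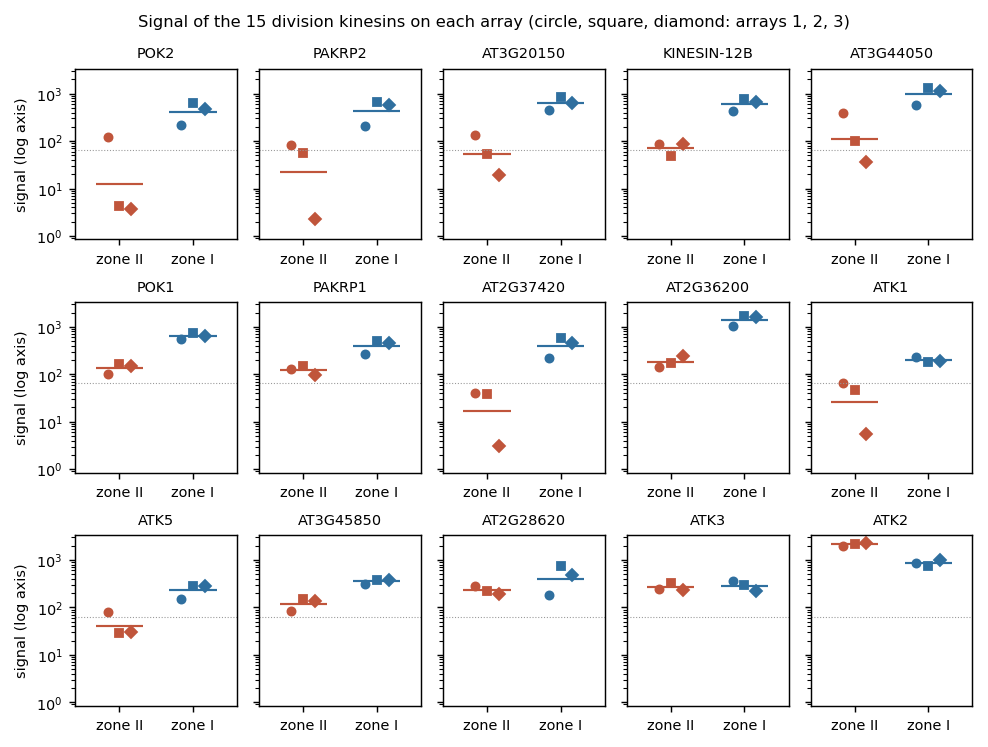
Signal on a log axis for the 15 division kinesins, with zone II left of zone I in each panel, 1 point per array, a horizontal bar for the geometric mean and a dotted line at a signal of 64. In 12 panels every zone I array lies above every zone II array, ATK2 runs the other way, and AT2G28620 and ATK3 overlap.

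The spindle kinesins were divided, with 5 of 8 called higher in zone I (19.8% of all probe sets), 1 called higher in zone II (18.1%) and 2 not called. The kinesin-5 motors, which slide antiparallel microtubules apart and hold the spindle poles at a distance, supplied 3 of the 5. AT2G36200 had 145, 169 and 247 in zone II, against 1045, 1691 and 1613 in zone I, a difference of -2.96 ± 0.29 (adjusted p = 2.04e-05). Its zones were far apart on all arrays, and the difference was the one with the smallest p among the division kinesins. AT2G37420 had 41.1, 38.5 and 3.14 in zone II, against 219.9, 571 and 459 in zone I (-4.50 ± 0.94, adjusted p = 0.00286; -2.34 with 64 added). AT3G45850 had 83.2, 147 and 135 in zone II, against 317, 371 and 370.2 in zone I (-1.57 ± 0.36, adjusted p = 0.00475).

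The fourth kinesin-5 locus, AT2G28620, was not called. It had 288, 221 and 191 in zone II, against 181, 728 and 489 in zone I, a difference of -0.80 ± 0.46 (adjusted p = 0.207). The overlap came from zone I array 1, and without that array the difference was -1.38 (adjusted p = 0.0126). Without zone I array 2 the difference was -0.37 (adjusted p = 0.604), and leaving out any other single array gave no call either.

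The spindle kinesins of the kinesin-14 subfamily, motors that walk toward the minus end and focus spindle poles, ran in both directions. ATK1 had 66.8, 46.6 and 5.46 in zone II, against 227, 183 and 191 in zone I (-2.96 ± 0.87, adjusted p = 0.0203; -1.40 with 64 added). The ATK1 call was lost without the intensity trend (adjusted p = 0.0686) and when zone I array 1, 2 or 3 was left out (adjusted p = 0.0742, 0.0625 and 0.0581). ATK5 had 81.5, 28.7 and 29.9 in zone II, against 147, 288 and 279 in zone I (-2.47 ± 0.58, adjusted p = 0.0062; -1.44 with 64 added). ATK3 had 246, 333 and 228 in zone II, against 364, 291 and 223 in zone I, with overlapping zones and a difference of -0.12 ± 0.32 (adjusted p = 0.819). ATK2 was the division kinesin called higher in zone II. Its signals of 1966, 2214 and 2290.0 in zone II, against 863, 743 and 984 in zone I, were even within each zone and gave a difference of 1.33 ± 0.18 (adjusted p = 0.000203).

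Zone II array 1 and zone I array 1 stood apart for many division kinesins, and also for many members of the other lists. Against the mean log2 signal of the other zone II arrays, zone II array 1 was higher for 10 of 15 division kinesins. The median over the list was 0.49 (2.07 for the kinesins placed with the phragmoplast, 0.16 for those placed with the spindle and 0.04 over all probe sets). Against the mean of the other zone I arrays, zone I array 1 was lower for 12 of 15, with a median over the list of -0.72 (-0.06 over all probe sets). Zone II array 1 was also higher for 21 of the 33 other kinesins (median 0.27) and 20 of the 29 partner genes described below (median 0.35). Zone I array 1 was lower for 21 of the 33 (median -0.12) and 24 of the 29 (median -0.38). The share of all probe sets with these signs was not counted. The zone markers did not move as 1 list on these arrays. Zone II array 1 was the highest of its zone for 1 of the 4 dividing-cell markers, KN (338, 3.10 and 23.0), but not for CYCB1;1 (48.3, 60.1 and 26.6), and it was the lowest for PLT1 (2.27, 18.8 and 5.43) and PLT2 (1.38, 10.9 and 16.0). Of the root cap factors it was the highest for SMB (110, 3.15 and 3.07) and the lowest for FEZ (1.30, 31.2 and 1.84). Over the 4 dividing-cell markers array 1 against the mean of the others had a median of -0.94 for zone II, and one of -0.41 for zone I. Most of these zone II signals were under 64, and the part of the markers in the result was not tested. Without zone II array 1 the division list had 12 members called higher in zone I, where 19.3% of all probe sets were, and a median of -2.96. Without array 1 of both zones 13 were called higher in zone I, where 16.3% of all probe sets were, and the median was -3.27.

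Close relatives were set side by side through the log2 ratio of their signals on each array. In 2 of 8 pairs this ratio did not overlap between the zones. How often the ratio of any 2 probe sets does not overlap was not counted, so the 2 pairs are only described. The ratio of ATK2 to ATK3 was higher in zone II by 1.44, and so was that of PAKRP1 to KINESIN-12B by 1.45, each with p = 0.1 (two-sided exact permutation test), the smallest that 3 arrays against 3 allow. After Benjamini-Hochberg adjustment over the 8 pairs both exact permutation tests had p = 0.4. With 64 added to the signals, the 2 gaps were 1.36 and 1.03. For POK1 and POK2 the differences of -2.23 and -5.03 lay 2.80 apart, but the ratios overlapped, the exact permutation p was 0.4, and with 64 added the gap was 0.52, smaller than those of both pairs above. The pairs of ATK1 and ATK5, KAC1 and KAC2, MKRP1 and MKRP2, ARK2 and ARK3, and KINESIN-13A and AT3G16060 overlapped too.

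Of the 5 kinesins linked to growth or the cortical array, none was called higher in zone II (18.1% of all probe sets). In zone I 2 were called higher (19.8% of all probe sets). AT5G60930, of the kinesin-4 subfamily and annotated as a putative chromosome-associated kinesin, had 123, 65.4 and 97.5 in zone II, against 491, 892 and 546 in zone I (-2.75 ± 0.37, adjusted p = 0.000168). AT3G16060, of the kinesin-13 subfamily of microtubule-shortening motors, had 886, 609.6 and 701 in zone II, against 1063, 1281 and 1167 in zone I. That difference was small, -0.69 ± 0.21 (adjusted p = 0.0228), and its call was lost with no intensity trend (adjusted p = 0.0959) and when zone I array 2 or 3 or zone II array 2 was left out (adjusted p = 0.0864, 0.0670 and 0.0843). The other kinesin-13, KINESIN-13A, lay at 0.27 ± 0.22, and the armadillo-repeat kinesins ARK2 and ARK3 at 0.45 ± 0.31 and 0.02 ± 0.56, none of them called.

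Among the 5 organelle kinesins the call fell on KP1 alone, a kinesin-14 known to bind mitochondria, toward zone II (18.1% of all probe sets). KP1 had 426, 375 and 262 in zone II, against 66.3, 76.1 and 65.8 in zone I, a difference of 2.32 ± 0.39 (adjusted p = 0.0007). Its lowest zone II array was above its highest zone I array by a wide margin. The chloroplast movement kinesins KAC1 and KAC2 lay at 0.63 ± 0.35 and -0.15 ± 0.32. MKRP1 and MKRP2, kinesins targeted to mitochondria, lay at -0.34 ± 0.33 and -0.53 ± 0.20, and none of these 4 was called. ATK4, a kinesin-14, had 3419, 7186 and 7385 in zone II, against 1154, 770.2 and 819.8 in zone I. It was higher in zone II by 2.65 ± 0.29 (adjusted p = 4.25e-05), with its zone II array 1 below the other two.

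The 22 members with no role assigned included the differences furthest from 0 in the direction of zone II. Of these 22, 5 were called higher in zone II (18.1% of all probe sets), 7 were called higher in zone I (19.8%) and 10 were not called. AT4G24170, annotated only as a kinesin motor protein, had 206, 114 and 98.7 in zone II, against 1.16, 1.66 and 23.1 in zone I. Its difference of 5.22 ± 1.19 (adjusted p = 0.00496) was 1.46 with 64 added, and the call was lost without array 1 of both zones (4.09, adjusted p = 0.0586). AT1G18410 had 323, 387 and 389.9 in zone II, against 23.0, 2.04 and 41.9 in zone I (4.87 ± 0.98, adjusted p = 0.00243; 2.34 with 64 added). For both loci every zone II signal lay above every zone I signal, and the zone I signals were scattered at the low end of the scale.

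AT1G09170 had 773, 802 and 738 in zone II, against 94.4, 50.9 and 26.1 in zone I (3.94 ± 0.46, adjusted p = 6.34e-05; 2.82 with 64 added). With 64 added it had the furthest difference toward zone II of all 48 members. AT4G38950 had 828, 393 and 658 in zone II, against 60.1, 102 and 67.2 in zone I (3.01 ± 0.39, adjusted p = 0.000136). AT3G12020 had 2690.4, 3199 and 2105 in zone II, against 544, 467 and 452 in zone I (2.43 ± 0.21, adjusted p = 9.65e-06), which was the smallest p among the 48.

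**Figure D3:**
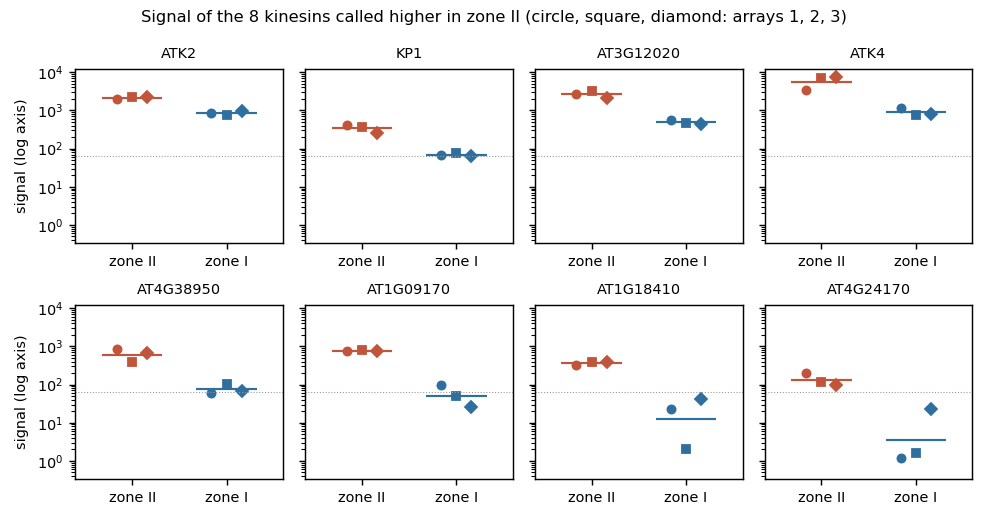
Signal on a log axis for the 8 kinesins called higher in zone II, with zone II left of zone I in each panel, 1 point per array, a horizontal bar for the geometric mean and a dotted line at a signal of 64. ATK2, ATK4 and AT3G12020 were bright in both zones, while AT1G18410 and AT4G24170 lay under 64 on all zone I arrays.

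Toward zone I, AT1G72250 had 93.1, 5.36 and 65.3 in zone II, against 409.6, 1396 and 787 in zone I (-4.58 ± 0.92, adjusted p = 0.00236; -2.90 with 64 added). AT2G22610 had 140.4, 55.9 and 47.9 in zone II, against 397, 991 and 654 in zone I (-3.14 ± 0.49, adjusted p = 0.000427). Both had zone I array 1 as the lowest of its zone and zone II array 1 as the highest, as POK2 and PAKRP2 did. The 2 probe sets annotated to AT3G10180 gave different plain differences, -2.95 ± 1.06 (adjusted p = 0.0486) for the one listed as AT3G10180 and -1.26 ± 0.43 (adjusted p = 0.0387) for the one listed as AT3G10170, and nearly equal ones of -0.88 and -0.82 with 64 added. AT5G33300, AT5G02370 and AT1G63640 were also called higher in zone I, with differences of -1.36, -0.99 and -0.81. The count of 9 among the 33 non-division kinesins was 5 with no intensity trend (15.8% of all probe sets), 5 without zone I array 2 (15.3%) and 4 without zone I array 3 (15.2%). Of the 10 that were not called, AT5G41310 and AT5G42490 had mean signals under 64 in both zones.

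The role list held 5 more motor genes whose annotation lacks the word kinesin and which were therefore no members. MRH2, an armadillo-repeat kinesin named for its root hair phenotype, had 1722, 983 and 1283 in zone II, against 121, 85.4 and 146 in zone I (3.50 ± 0.31, adjusted p = 1.18e-05). Its relatives ARK2 and ARK3, given above, were not called. TES, a cytokinesis kinesin of the kinesin-7 subfamily, had 155, 15.8 and 66.0 in zone II, against 329, 548 and 575 in zone I (-3.11 ± 0.70, adjusted p = 0.00485; -2.02 with 64 added). KICP-02 was not called at -2.35 ± 0.87 (adjusted p = 0.0545), but with 64 added it lay at -1.17 and passed the threshold (adjusted p = 0.0396). FRA1 and ZWI were not called, at 0.11 ± 0.27 and 0.54 ± 0.26.

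Genes that work with kinesins were taken as a list of 31 loci, of which 29 were measured (RUK and KLCR3 were not analysed here). They comprised microtubule bundlers, spindle assembly factors, the kinase cascade bound by cytokinetic kinesins and another phragmoplast kinase. Division site and preprophase band proteins, mitotic transcription factors, regulators of microtubule dynamics and kinesin light chain-related proteins made up the rest. Of the 29, 5 were called toward zone II (18.1% of all probe sets) and 16 toward zone I (19.8%). The median difference was -1.37 (-1.01 with 64 added). The furthest toward zone I was MAP65-2, a bundler of antiparallel microtubules, with 69.6, 96.4 and 179.8 in zone II, against 2935, 2863 and 3708 in zone I (-4.89 ± 0.33, adjusted p = 3.49e-06). MAP65-3, which bundles the phragmoplast midzone, lay at -3.90 ± 0.45 (adjusted p = 6.09e-05; -2.97 with 64 added), and the kinase ANP3 at -3.52 ± 0.41 (adjusted p = 5.83e-05).

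The kinase ANP1, of the same family as ANP3, went the other way, at 1.63 ± 0.48 (adjusted p = 0.0197; 1.02 with 64 added). REN1 (AT4G24580), a GTPase-activating protein entered on the list under the name of the division site gene PHGAP2, lay at 2.63 ± 0.20 (adjusted p = 5.55e-06). The partner counts and median above include REN1. The furthest toward zone II was KLCR2, a kinesin light chain-related protein of the type that sits on cortical microtubules. KLCR2 had 3136, 2963 and 2959.8 in zone II, against 279, 113 and 96.7 in zone I (4.38 ± 0.35, adjusted p = 7e-06). KLCR1 was also higher in zone II, by 0.92 ± 0.20 (adjusted p = 0.00385), with 7269, 10928 and 11497 in zone II, against 5919.9, 4788 and 4781 in zone I.

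The authors' deposited table holds their own comparison of the zones, with no stated test or direction in the labels or file headers. Its log2 fold change was read as zone II over zone I, because across all probe sets it correlated with that difference in the signals (Pearson r = 0.87 across probe sets, which are not independent replicates). At an adjusted p under 0.05, the authors' deposited table has a positive fold change for 9 kinesins (20% of all probe sets) and a negative one for 23 (25.6%). These included all 29 kinesins called from the signals, each with the same sign, and AT1G18550, AT3G63480 and AT3G49650 besides. The sizes of some genes differed between the 2 sources, and why was not tested. For POK2 the authors' deposited table gives -2.66, against -5.03 from the signals and -2.32 from the signals with 64 added. For AT4G24170 the authors' deposited table gives 1.24, against 5.22 and 1.46. For AT1G09170, whose zone I mean was also under 64, the authors' deposited table gives 4.10, against 3.94 from the signals. AT3G20150, with a zone II mean under 64, has -3.32 there, against -3.56 from the signals. AT2G36200, with neither zone mean under 64, has -2.08, against -2.96.

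**Figure D4:**
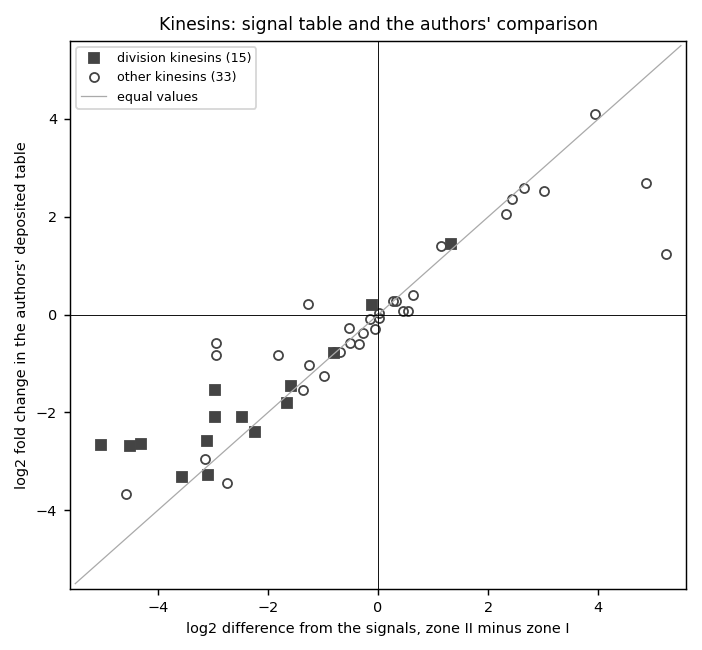
Log2 fold change in the authors' deposited table (vertical axis) against the log2 difference of zone II minus zone I from the signals (horizontal axis) for the 15 division kinesins (squares) and the 33 others (circles), with a line of equal values. POK2 at -5.03 and AT4G24170 at 5.22 lie far from the line, and AT1G09170 at 3.94 lies close to it.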

How the data were processed

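Per the labels' protocols, total RNA was amplified with the Ovation Pico WTA System and biotin-labelled. The authors deposited signal intensity values for 22810 probe sets, credited to MAS5 and Affymetrix Expression Console in the submitters' processing notes. Their versions and settings, the array design and the genome build were not stated in the labels or headers. Each array had the same trimmed mean (500.05 after 2% was removed at each end). The authors also deposited a table of log2 fold changes and p-values of their own comparison, which supplied the annotations. Here the deposited intensity scaling was kept, 64 control probe sets were left out, and log2 signals were compared with limma 3.58.1 (R 4.3.3; lmFit, eBayes with an intensity trend, two-sided, Benjamini-Hochberg adjustment over 22746 probe sets). No dim probe sets were filtered out. No detection calls were used, and the number of arrays limits the precision. The fit was also run on simulated data with independent, normally distributed noise. That run does not show how the fit handles the scattered signals of the dim members. Gene symbols came from the annotations and from TAIR10.1, which held 47 of the 48 loci. None of the 48 was an s_at or x_at probe set. The members, role lists, partner list, tests and naming rule were chosen with earlier results of these data known. The rule named up to 5 called members with the largest difference per role group, called members against a group's majority, and all kinesin-5 and kinesin-12 members. The other called members and the paralogue pairs were named after their values were seen. The alternatives tried were 64 added to signals, a block for the replicate number, quantile normalization, a filter at the 40th percentile, no intensity trend, arrays left out, and a shorter division list. Figures were drawn with Python 3.11.15 and matplotlib 3.10.9.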

Additional observations from a re-analysis of the deposited data

How the results depend on the processing

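Over 12 alternatives the count of kinesins called higher in zone II lay between 6 and 9, and that of kinesins called higher in zone I between 15 and 21, against 8 and 21. The 6 came with the dim probe sets left out, where 26.3% of the probe sets kept were called toward zone II. That filter kept 13 division kinesins and 26 of the others. It removed AT1G18410 and AT4G24170 before the fit, so they did not lose a call there. The 9 came without zone II array 2 (15.3% of all probe sets). The 15 came with no intensity trend (15.8% of all probe sets toward zone I) and without zone I array 2 (15.3%) or 3 (15.2%). Of 24 called members described by the naming rule, 20 kept their call under all alternatives that measured them, and PAKRP2, ATK1, AT3G16060 and AT4G24170 lost it under at least 1. None of the 25 members described by the rule changed direction. The median of the division kinesins was -1.80 with 64 added. It was -2.47 with the dim probe sets, POK2 and ATK1 among them, left out, or with AT3G44050 and AT3G20150 counted among the others. It ran from -2.96 to -2.29 with 1 array left out, the second without zone II array 3, and was -3.27 without array 1 of both zones. The median of the other kinesins was near 0 and its sign was not stable. It was -0.27 with quantile normalization or with those 2 loci added, and ran from -0.37 to 0.0182 with arrays left out, the positive value without zone I array 2. The partner median was -1.01 with 64 added and -0.93 with the dim probe sets left out, and ran from -1.58 to -1.18 with arrays left out. The count of non-division kinesins called higher in zone I was 5 without the intensity trend and ran from 4 to 8 with arrays left out. The partner genes called higher in zone II, 5 as reported, were 3 without the intensity trend (15.3% of all probe sets). They were also 3 without zone I array 1 (16.5%) and without array 1 of both zones (15.3%). The causes were not tested. The replicate number as a block gave 8 kinesins called higher in zone II (17.7% of all probe sets) and 20 called higher in zone I (19.4%). The deviations of arrays with the same number had correlations of 0.00406, 0.036 and 0.0373 over all probe sets, and the numbers were not taken to pair the arrays. Many of these probe sets were dim, so the correlations cannot show whether pieces with the same number were collected together. The signals carry no detection calls, so the members under 64 in 1 zone have no reliable size of difference.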
